A study of Drosophila melanogaster with 4 samples.

Results

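The 8 Hox genes of *Drosophila melanogaster* lie in 2 clusters on chromosome arm 3R, the Antennapedia complex (*lab*, *pb*, *Dfd*, *Scr* and *Antp*) and the bithorax complex (*Ubx*, *abd-A* and *Abd-B*), and the peaks called for GFP-tagged Notch in and around them are described here. Members were defined by position, with earlier results of these data known. They are 3R peaks overlapping the stretch 2470000 to 2840000 (Antennapedia complex) or 12470000 to 12820000 (bithorax complex), on FlyBase release 5 of the genome. The first stretch held 10 peaks and the second 11, which makes 21 of the 788 peaks on 3R and 21 of the 4198 in the whole list (0.500%, exact 95% binomial interval 0.310 to 0.764%). Chromatin immunoprecipitation and sequencing (ChIP-seq) was done on whole larvae in the wandering stage of the last larval instar (L3), with 2 ChIP libraries made with the polyclonal rabbit antibody ab290 against GFP and 2 libraries of input DNA. Per the labels, the larvae of all 4 libraries were of strain Notch-GFP and genotype PBac{y[+]-attP-3B}VK00033, carried a transgene with the Notch genomic coding region, and were of unknown sex. The protocol text in the labels names y; bw cn sp flies instead, and whether untagged Notch was also present is not given in the sources used here.

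Hox genes encode homeodomain transcription factors that give each body segment its identity, and their order along the chromosome follows the order of the segments they act in. Their expression is kept on or off through development by Polycomb and Trithorax group proteins, which act through dispersed elements that can lie far from the gene. The receptor Notch sits in the cell membrane; when a ligand binds, its inner part is cut free, enters the nucleus and joins the DNA-binding protein Su(H) at target genes. In larvae, Hox genes and Notch both act in the imaginal discs and in the nervous system.

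The authors' list gives 1 score per peak and no value per library, so none of the values below has a replicate error, and no test between ChIP and input could be made. What statistic the score is, and on which scale, is not stated in the sources used here. It was used only to rank and compare peaks within the list, where its median is 26.1. Whole larvae were used, so a peak in few cells cannot be told apart from a weak peak in many. No precipitation from untagged larvae was used here, so a peak is a called region and not a proven site of Notch. A gene without a peak is a gene where none was called at an unknown depth. The gene table is on release 6, and genes were placed by subtracting a fixed 4174278 bp from their 3R positions. At that offset 372 of the 788 peaks on 3R had their centre within 500 bp of an annotated gene end, against 190 and 203 with the offset moved by 1500 bp to either side. Within 1 Mb of the Antennapedia complex the count was 36 of 72 peaks, against 19 and 20, and within 1 Mb of the bithorax complex it was 32 of 79, against 20 and 24. Moving the offset by only 200 bp left these counts at 35 and 35, and at 28 and 32, so distances below 500 bp should be read loosely.

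Neither complex stood apart in its number of peaks. The Antennapedia complex had 27.0 peaks per Mb (exact 95% Poisson interval 13.0 to 49.7) and the bithorax complex 31.4 (15.7 to 56.2), and both intervals include the 28.2 per Mb of the rest of 3R (26.3 to 30.3, 767 peaks). These intervals reflect counting error alone, as though peaks were independent of each other. Among 2605 stretches of the same length placed every 10 kb along 3R, clear of both complexes, the median was 10 peaks (quartiles 7 and 14), and 54.2% held 10 or more. Among the 2611 stretches of the length of the bithorax complex, the median was 9 peaks (quartiles 6 and 13), and 41.3% held 11 or more. Both complexes are poor in protein-coding genes, with 25 and 19 annotated against medians of 45 and 43 in the stretches. Among stretches within 5 genes of those numbers the median was 6 peaks for the first and 5 for the second, and 27.6% and 24.7% of them held as many peaks as the complex.

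The scores of the Antennapedia complex were higher by their median than those of the bithorax complex, with wide intervals that overlap. The median score was 95.5 in the Antennapedia complex (exact 95% interval from order statistics 12.5 to 166.6, 10 peaks) and 28.0 in the bithorax complex (8.90 to 143.7, 11 peaks), against 26.2 in the rest of 3R (23.9 to 29.1). With peaks closer than 1 kb merged, which joins the 3 adjoining peaks in *Abd-B*, the median of the bithorax complex was 45.4 (16.9 to 143.7). The same merging gave 81.3 (12.5 to 156.7) in the Antennapedia complex. A merged peak took the highest score of its parts, and the 26.2 of the rest of 3R is without merging. The interval of the Antennapedia complex is so wide that it includes the value for the rest of 3R. In the Antennapedia complex 5 of 10 peaks scored over 100 (exact 95% interval 18.7 to 81.3%), and in the bithorax complex 3 of 11 did (6.02 to 61.0%), against a background of 12.1% among the 767 other peaks of 3R. In each complex 1 of these lay outside the outermost Hox genes, scoring 109.6 to the right of *Antp* and 143.7 to the left of *Ubx*. Only 10 of the 2605 stretches had a median score as high as the Antennapedia complex, which is 0.385% of those that held a peak. Among the stretches of the length of the bithorax complex that held a peak, 47.6% were as high as that complex. These stretches overlap each other, and the shares are given as a description. Of the 10 peaks of the Antennapedia complex, 2 lie over tRNA and 7SL RNA genes. Without such peaks the complex had 8 peaks with a median score of 60.4, of which 3 scored over 100, and 4.77% of stretches with a peak were as high.

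**Figure D1:**
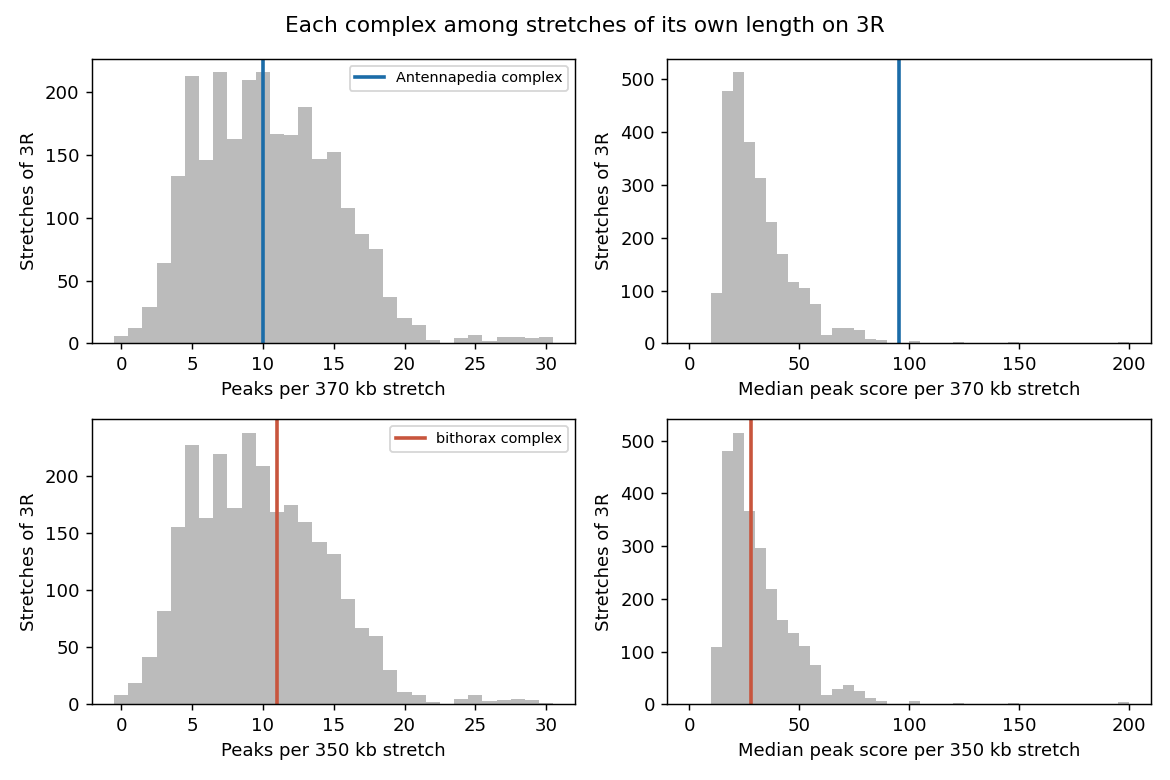
Number of peaks (left) and median authors' score (right) in stretches of 3R as long as the Antennapedia complex (top) and the bithorax complex (bottom), placed every 10 kb; the coloured line marks the complex. The numbers of peaks, 10 and 11, fall in the middle of the stretches, and the median score of 95.5 in the Antennapedia complex falls in the upper tail.

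Wider peaks score higher in this list, so each member was set beside the other 3R peaks within 10% of its width. Of the 21 members, 17 scored above the median of those peaks, 8 of 10 in the Antennapedia complex and 9 of 11 in the bithorax complex. The peak between *abd-A* and *Abd-B* from 12695026 to 12695468 was 443 bp wide and scored 121.9, and 0 of 112 peaks of like width scored as high. The peak in *Antp* from 2733800 to 2734281 was 482 bp wide and scored 127.1, and 0.935% of 107 peaks of like width scored as high. Both were narrow for their score.

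**Figure D2:**
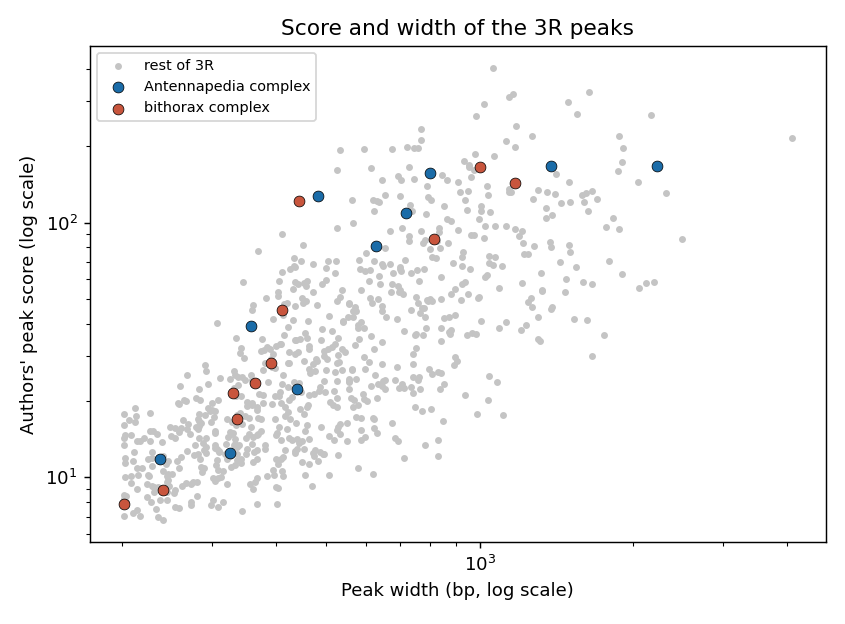
Authors' score against peak width, both on log scales, for the 767 other peaks of 3R (grey) and the peaks of the Antennapedia complex (blue, 10) and bithorax complex (red, 11). Most members lie in the upper part of the cloud at their width, and 2 members between 443 and 482 bp wide scored 121.9 and 127.1.

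The anterior end of the Antennapedia complex carried no peak. *lab*, which acts in the intercalary segment of the head and in the midgut, and *pb*, which specifies the mouthparts, had 0 peaks in bodies of 17.2 and 34.3 kb. Of 133 other protein-coding genes on 3R within 25% of the length of *lab*, 54 held a peak. For *pb* it was 46 of 96. Most genes of like length thus held none, so an empty body alone does not set *lab* or *pb* apart. The peak-free stretch around *lab* and *pb* ran from 2300457 to 2594031, which is 293.6 kb and the sixth longest of the 787 gaps between peaks on 3R, whose median was 14.7 kb. It held 33 protein-coding genes, *lab* and *pb* included, and began 169.5 kb before the left bound of the complex. The genes between and beside them were without a peak as well. These were the cuticle protein genes *Ccp84Aa* to *Ccp84Ag*, the homeobox genes *zen* and *zen2* that act on the dorsal side of the embryo, and *bcd*, which encodes the anterior morphogen of the egg. Over all 14 other genes listed for this complex, which add *Ama*, *ftz*, *mir-10* and *mir-993*, the number with a peak in the body or within 1 kb of an end was 0, and the nearest peak lay a median of 43.8 kb from the gene. For comparison, 19.6% of the 4216 other genes on 3R had a peak within 1 kb of an end. Of the 14 genes 11 lie in the same 293.6 kb gap, *mir-10* and *mir-993* in a gap of 50.5 kb and *ftz* in a gap of 44.0 kb, so they do not count as independent.

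*Dfd*, which specifies the mandibular and maxillary segments, had 0 peaks in its 10.6 kb body. The nearest peak upstream of its start lay 23.2 kb away, from 2594032 to 2594388, in the long non-coding RNA gene lncRNA:CR42721, and scored 39.5. This was the single peak in the 49.8 kb between *pb* and *Dfd*. The peak-free stretch over *Dfd* measured 50.5 kb, a length that 22.0% of the gaps on 3R reach. Among other protein-coding genes on 3R of like length to *Dfd*, 37 of 93 held a peak, so most held none.

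The 2 highest scores of the Antennapedia complex belonged to peaks over a cluster of RNA polymerase III genes between *Dfd* and *Scr*. Both lay outside the annotated Hox gene bodies, and which gene the signal belongs to was not tested. The peak from 2644875 to 2647095 was 2221 bp wide, scored 166.9 (rank 30 on 3R) and overlapped tRNA:Lys-TTT-2-1, 7SLRNA:CR42652 and tRNA:Lys-TTT-2-2. The next peak, 186 bp further on, from 2647282 to 2648662, scored 166.6 (rank 31) and overlapped tRNA:Lys-TTT-2-3 and 7SLRNA:CR32864. 7SL RNA is the RNA of the signal recognition particle, which docks ribosomes making secreted proteins at the endoplasmic reticulum. Of the 4 tRNA genes in the stretch 3 were overlapped by a peak, and both 7SL RNA genes were. In the rest of 3R, 5 of 75 tRNA genes (6.67%) were overlapped, and 0 7SL RNA genes are annotated, so those have no background share. The overlapped genes of the complex lie side by side under 2 adjoining peaks and do not count as independent. Reads may be shared between near-identical copies of such genes, and how the authors placed shared reads is not given in the sources used here. The second of these peaks ends 180 bp before the annotated left end of *Scr*, which is its 3′ end, since *Scr* is transcribed leftward. The gene table has no strand; directions of the Hox genes are textbook knowledge.

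*Scr*, which specifies the labial and the first thoracic segments, was the only one of the 8 Hox genes with a peak within 1 kb of its annotated start. That peak, from 2674171 to 2674796, lay 907 bp inside the gene, was 626 bp wide and scored 81.3, in the top 17.7% of the list. A second, weak peak inside *Scr*, from 2664359 to 2664595, scored 11.9 and lay 11.1 kb from the start. The gene body of 26.9 kb thus held 2 peaks. Of 102 other protein-coding genes on 3R within 25% of its length, 18 held at least 2.

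*Antp*, which specifies the second thoracic segment and whose misexpression turns antennae into legs, is the longest Hox gene at 103 kb and had peaks in and around it. Between *Scr* and *Antp*, where the pair-rule gene *ftz* lies without a peak, the peak from 2718797 to 2719596 scored 156.7 (rank 39 on 3R). It overlapped lncRNA:CR45559 and lay 2.38 kb beyond the 3′ end of *Antp*. Inside the gene, the peak from 2733800 to 2734281 scored 127.1 and lay 90.7 kb from the annotated start. The other peaks in the body were weaker, with scores of 12.5 (2738530 to 2738854) and 22.2 (2786500 to 2786938). The peaks that scored 127.1 and 12.5 also overlapped another annotated protein-coding gene, *CG46458*. Upstream, 1.31 kb beyond the annotated start, the peak from 2826265 to 2826983 scored 109.6 and overlapped lncRNA:CR45899. *Antp* thus had strong peaks 2.38 and 1.31 kb outside its annotated ends, both beyond the 1 kb counted as near an end. Its body held 3 peaks. Of the 18 other protein-coding genes within 25% of its length, 5 held 3 or more.

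**Figure D3:**
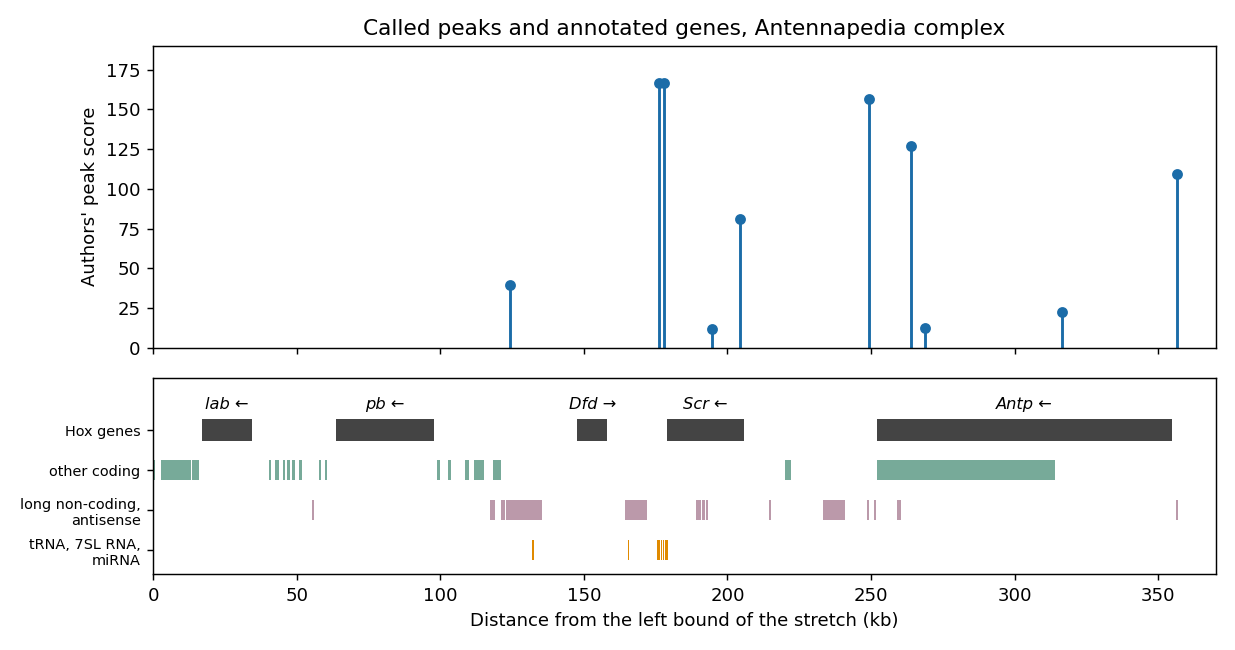
Antennapedia complex: authors' score of each of the 10 peaks (top) against distance from the left bound of the stretch in kb, and annotated genes placed by the fixed offset (bottom), with arrows for the direction of transcription of the Hox genes. The left part of the map, with lab and pb, has no peak, and the peaks with scores from 109.6 to 166.9 lie at the tRNA and 7SL RNA genes and around Antp.

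Among the Hox genes of the bithorax complex and the intervals between them, the peaks with high scores lay on the *Abd-B* side, where weak ones lay as well. *Ubx*, which specifies the third thoracic segment and keeps the haltere from becoming a wing, had 1 peak in its 77.8 kb body, from 12528643 to 12528971, with a score of 21.4. It lay 31.2 kb from the annotated start. The interval of 72.8 kb between *Ubx* and *abd-A* holds the bxd/pbx regulatory region upstream of *Ubx*. It had 2 peaks, both weak: 1 in the long non-coding RNA gene lncRNA:bxd (12589782 to 12590021, score 8.90) and 1 that overlapped no annotated gene (12624418 to 12624752, score 16.9). *abd-A*, which acts in the anterior abdomen, had 0 peaks in its 22.8 kb body and lay in a peak-free stretch of 70.3 kb. The first peak of the stretch, from 12472440 to 12473610 with a score of 143.7, lay 8.74 kb to the left of *Ubx* over the ends of *CG10324* and *CCT3*, outside the complex proper.

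The interval of 97.2 kb between *abd-A* and *Abd-B* had 4 peaks with a median score of 65.8. It holds the infraabdominal regulatory regions that drive *abd-A* and *Abd-B* in successive abdominal segments, with the boundary elements between them. Their positions are not in the gene table, and no peak was assigned to them. The peaks lay from 12695026 to 12695468 (score 121.9), from 12708127 to 12708516 (28.0), from 12724663 to 12725478 (86.1) and from 12744621 to 12745030 (45.4). They were spaced by 12.7, 16.1 and 19.1 kb, and the next peak, in *Abd-B*, followed after 13.7 kb. Each of these peaks between *abd-A* and *Abd-B* overlapped lncRNA:iab8, the long non-coding RNA gene that runs 92.1 kb through this interval. Those that scored 121.9 and 28.0 also overlapped the annotated protein-coding gene *MSAmiP*. The first peak lay 12.8 kb from lncRNA:iab4 and 13.0 kb from the microRNA genes *mir-iab-4* and *mir-iab-8*, which lie on the same 68 bp. None of those small genes had a peak in the body or within 1 kb of an end.

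*Abd-B*, which specifies the posterior abdomen and the genitalia, had 3 peaks in its 45.0 kb body, all within 2.03 kb near its 3′ side. The strongest, from 12759790 to 12760790, was 1001 bp wide and scored 165.3, the highest score of the complex and rank 34 on 3R. Beside it lay peaks from 12759023 to 12759385 (score 23.5) and from 12758762 to 12758962 (score 7.85). The group was 37.2 kb from the annotated start, which in the gene table is the outermost end over all transcripts. *Abd-B* is known to have several promoters, and which of them lie near the group could not be read from the table. To the right of the group no peak followed for 119 kb, a gap that 6.73% of those on 3R reach, over the remaining 5′ part of *Abd-B* and 21 further protein-coding genes. Of 82 other protein-coding genes within 25% of the length of *Abd-B*, 9 held 3 or more peaks.

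**Figure D4:**
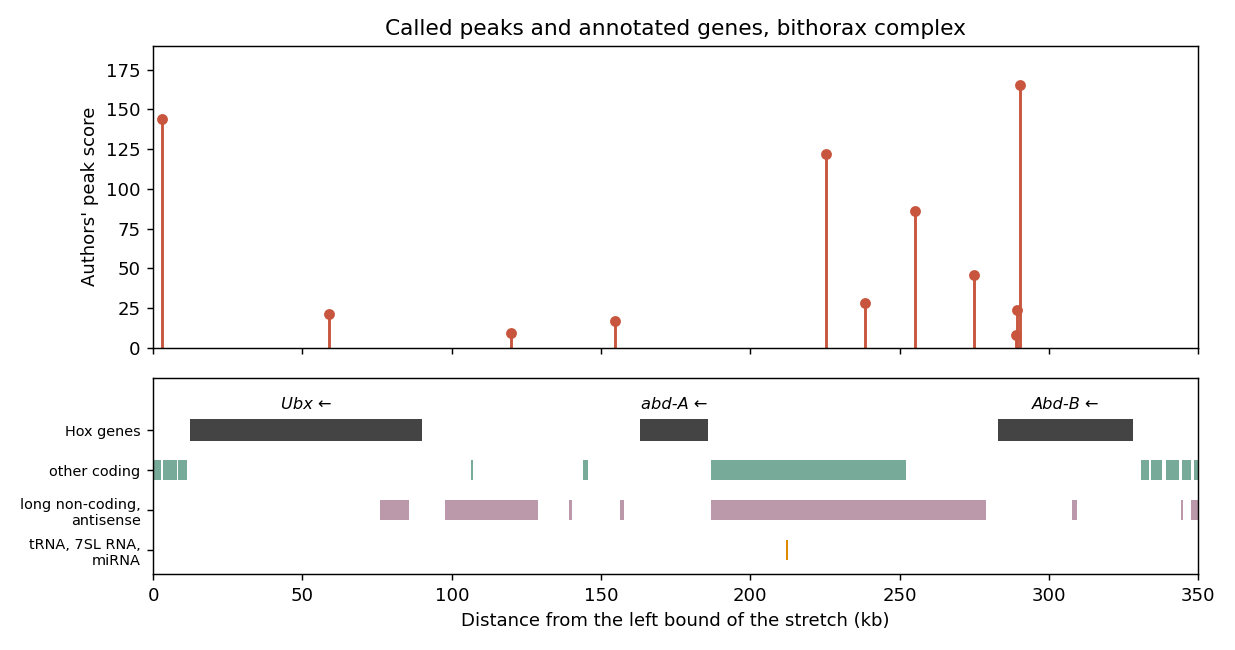
Bithorax complex: authors' score of each of the 11 peaks (top) against distance from the left bound of the stretch in kb, and annotated genes placed by the fixed offset (bottom), with arrows for the direction of transcription of the Hox genes. The peaks from Ubx to abd-A score from 8.90 to 21.4, and those from the abd-A to Abd-B interval into Abd-B from 7.85 to 165.3.

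The members of the bithorax complex lay away from annotated gene ends. Of its 11 peaks 1 was within 1 kb of an annotated gene end (9.09%, exact 95% interval 0.230 to 41.3%), and that was the peak over *CG10324* and *CCT3* in the flank. In the rest of 3R, 65.4% of 767 peaks were that close (62.0 to 68.8%), and in the Antennapedia complex 5 of 10 were (18.7 to 81.3%). The median distance to a gene end was 6.09 kb in the bithorax complex, 0.968 kb in the Antennapedia complex and 0.216 kb in the rest of 3R. Less of the bithorax complex lies within 1 kb of a gene end, 21.5% of its bases against 32.8% in the rest of 3R. In other stretches with about as many genes, 23.3% of the bases lie that close, and there 82 of 140 peaks (58.6%, 49.9 to 66.8%) did. The interval of the bithorax complex does not overlap that one, though its 11 peaks are few and those in *Abd-B* adjoin each other. Gene ends here are the outermost ends over all transcripts. Peaks at a promoter inside a gene, as may be the case in *Abd-B*, thus do not count as near an end.

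**Figure D5:**
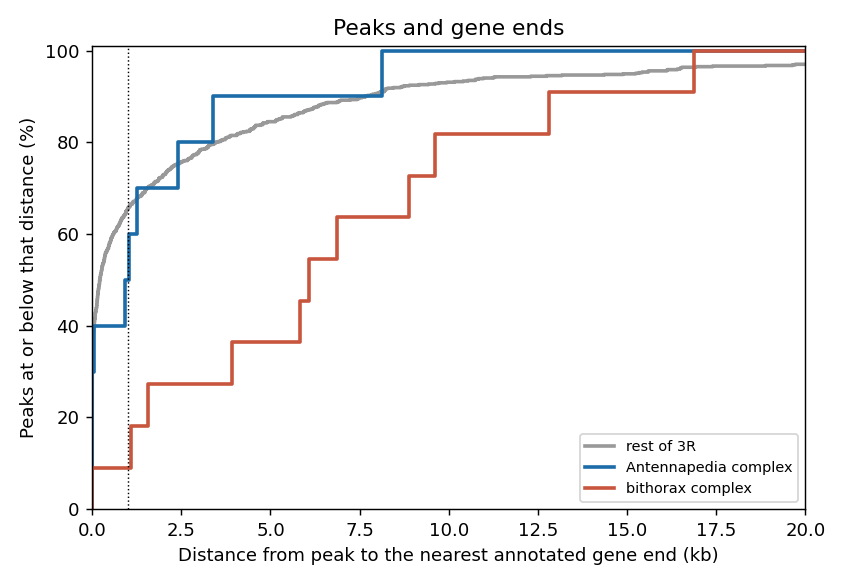
Cumulative share of peaks against the distance from the peak to the nearest annotated gene end in kb, for the rest of 3R (grey, 767 peaks), the Antennapedia complex (blue, 10) and the bithorax complex (red, 11); the dotted line is at 1 kb. The red curve lies below the others over most of the range, with a median distance of 6.09 kb against 0.216 kb for the rest of 3R.

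Set against genes of like size, the Hox genes as a group held about as many peaks as others. A peak lay in the body of 4 of the 8 (*Scr*, *Antp*, *Ubx* and *Abd-B*), beside 46% of the 443 other protein-coding genes of at least 10 kb on 3R, so the count is near the background. The 8 bodies together held 9 peaks in 337.5 kb, or 26.7 per Mb (exact 95% Poisson interval 12.2 to 50.6), against 24.6 per Mb (22.3 to 27.2) in those genes. The intervals between neighbouring Hox genes held 10 peaks at 31.7 per Mb (15.2 to 58.2), and the 2 kinds of sequence were not told apart. With either annotated end counted, 1 of 8 Hox genes had a peak within 1 kb, *Scr*, where the start and the 3′ end beside the tRNA genes both had a peak. This compares with 38.4% of the 443 long genes, and with 19.6% of the genes on 3R of any length and kind. A count of 1 of 8 is too small to be set apart from those shares.

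Other genes that regulate or work with Hox genes were read on 3R for comparison. Of 11 such genes, 6 had a peak in the body, beside 15.3% of the 3388 other protein-coding genes on 3R of any length and 46% of those of at least 10 kb. Within 1 kb of an end 5 of the 11 had a peak, beside 20.5% and 38.4%. Their bodies together held 21 peaks in 235.9 kb, 9 of them in *osa*, or 89.0 per Mb (exact 95% Poisson interval 55.1 to 136.1). That interval lies above the 24.6 per Mb of the genes of at least 10 kb, but it reflects counting error alone. The list mixes short and long genes, and 11 genes are few, so nothing is read from these counts about the list. *osa*, which encodes a subunit of the Brahma chromatin remodelling complex, held 9 peaks in 30.5 kb with scores up to 94.7. *trx*, which encodes the histone methyltransferase that gives the Trithorax group its name, held 5 peaks in 23.6 kb with scores up to 76.1. *mor*, another Brahma complex gene, had 1 peak with a score of 262.2, and *su(Hw)*, which encodes an insulator protein, had 1 with a score of 151.3. *mod(mdg4)*, which encodes a partner of that insulator protein, had 2, the stronger with a score of 23.2. *hth*, which encodes a homeodomain cofactor of Hox proteins, had 3 in 132 kb. *hb*, *tll*, *opa*, *Scm* and *ash2* had none in the body or within 1 kb. The 6 genes of the NK cluster, another homeobox cluster on 3R (*tin*, *bap*, *lbe*, *lbl*, *C15* and *slou*), had 0 peaks in bodies that sum to 55.03 kb. The exact 95% Poisson interval of that count, 0 to 67.0 per Mb, includes the 24.6 per Mb of genes of at least 10 kb. Most of the NK genes are shorter than that, and their bodies are too short in sum to set the absence apart from that rate.

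*Antp* and *Abd-B* held the most peaks of the Hox genes, 3 each. The genes on 3R with the same number and the nearest length were, for *Antp*, *pros*, *hth*, *Eip93F*, *gish* and *kay*, and for *Abd-B*, *gish*, *kay*, *REPTOR*, *Eip93F* and *sim*. Likeness here is the number of peaks in the body alone, over 1 list. The highest score in these genes ran from 21.6 in *REPTOR* to 403.3 in *sim*, and was 127.1 in *Antp* and 165.3 in *Abd-B*.

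Few peaks lay near the bounds of the stretches. Outside the Antennapedia complex the nearest peaks lay 169.5 kb to the left (score 21.4) and 23.0 kb to the right (score 25.3), and the outermost members lay 124.0 and 13.0 kb inside its bounds. Outside the bithorax complex they lay 32.6 kb to the left (score 70.8) and 59.7 kb to the right (score 25.4), and the outermost members lay 2.44 and 59.2 kb inside.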

How the data were processed

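ChIP-seq was done on 2 GFP-precipitated and 2 input libraries; per the labels' protocols, fixation was for 15 min in 1.8% formaldehyde, after growth at 25 °C. The authors deposited 1 peak list, with MACS as its source on FlyBase release 5 per the file headers and columns, and 1 score per peak, whose statistic and scale are unstated. The submitters' processing notes name BWA, MACS2 and the CASAVA versions 1.7.0.2 and 1.7.0.3, without settings. Nothing is given in the sources used here on threshold, use of input, treatment of replicates or depth.

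Peaks overlapping a stretch by 1 bp were taken as members. The gene table (RefSeq, release 6) has outermost gene ends and no strand, exons or transcripts. Its 3R positions were shifted by the fixed offset that belongs to the definition of the members; no release 6 or shifted positions are printed, and peak positions are release 5. The planned count of peaks at gene starts was therefore set beside peaks at either end for other genes, and starts of all transcripts, promoter sequences and motifs were not analysed here. Stretches of equal length every 10 kb were used for description in place of randomly placed ones. 3R was taken to end with its last peak. The genes named are the 8 Hox genes, the fixed gene lists, the 5 highest-scoring peaks of each complex and the 5 genes most like the Hox gene with most peaks (a tie gave 2 such lists). The other 11 peaks were named after their values were seen, so that each member is accounted for. bxd was read as lncRNA:bxd, and msa is a synonym of lncRNA:iab8. Members and lists were chosen with earlier results of these data known. Counting scripts were tested on simulated lists. Python 3.11.15, numpy 2.4.6, pandas 2.3.3, scipy 1.17.1 and matplotlib 3.10.9 were used.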

Additional observations from a re-analysis of the deposited data

How the results depend on the processing

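Of 41 values computed under alternatives, 35 stayed within their interval or, for counts, within 1.5 times, and 6 moved. The intervals are wide, so staying within them says little. The median score of the Antennapedia complex stayed within its interval although it fell from 95.5 to 60.4 without peaks over tRNA and 7SL RNA genes. Numbers of peaks and peaks per Mb rest on the same counts, so the values are not independent. Restricting the list to peaks above its median score left 6 peaks in the bithorax complex and put 34.0% of stretches at or above the Antennapedia complex in number, against 11 and 54.2%. Leaving out peaks over tRNA and 7SL RNA genes, chosen after the data were seen, put 68.5% there. The number of Hox genes with a peak at the start was 0 within 500 bp and 2 within 2 kb, and at either end it was 2 within 2 kb, against 1 within 1 kb, since *Antp* joins at 1.31 kb. With the offset moved by 1 kb either way the count was 1, but the gene was not the same. It was *Scr* with the genes moved left and *Antp* with the genes moved right, so the result for *Scr* depends on the offset. No paired analysis was possible because peaks have a single value over all libraries, and no replicate could be left out. Starts of all transcripts were not run. Depth is unknown, so the peaks that deeper sequencing would add were not estimated.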
